A study of Mus musculus with 48 samples.

Results

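Forebrain elements marked around birth are stretches of the mouse genome that carried acetylated histone H3 lysine 27 (H3K27ac) in forebrain before and at birth and no longer carried a called peak in older forebrain. Peaks of the 24 H3K27ac lists that overlapped by at least 1 bp were merged into 86181 elements. The members are the 1848 elements with a peak in forebrain E14.5, E17.5 and P0 and with none in forebrain P21, P56 replicate 1 or P56 replicate 2. They made up 11.45% of the 16139 elements with a peak at all 3 early stages, of which 88.5% had a peak in 1 or more of the 3 later lists. They were 2.14% of all elements, of which 62.7% had no peak in the 3 later lists. The members were chosen by presence and absence in these 6 lists, so their values there are a description and nothing is read from these shares. Presence of a peak in forebrain E11.5, forebrain P7, heart or liver was not asked for by the rule. Peaks of these lists did enter the merging, so they helped to set the extent of each element and thus which later peaks fell in it. With forebrain lists alone merged, 1915 elements met the rule, and 59.0% of them had no heart or liver peak.

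H3K27ac was mapped by ChIP-seq in CD-1 mice, in 3 tissues (forebrain, heart, liver) at 7 stages, E11.5, E14.5, E17.5, P0, P7, P21 and P56. No group carries a treatment or an engineered allele. Whole tissue was used, of animals pooled at every stage but P56, and an input accompanied every H3K27ac library. There were 2 libraries each for heart E11.5 and for forebrain E11.5 and P56, not stated to come from separate animals or pools, and 1 for each other group. The file headers and the authors' table write P0 as P1 and P21 as P20, and which is right is not known. In bulk tissue, a lost peak in fewer acetylated cells cannot be told apart from less acetylation per cell.

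H3K27ac lies on nucleosomes beside active promoters and enhancers, is written mainly by the acetyltransferases p300 and CBP, and is removed by histone deacetylases. Enhancer marking by H3K27ac tends to change with cell type and developmental state more than promoter marking does. From mid-gestation to birth the mouse forebrain makes most of its cortical neurons, which migrate and extend axons. After birth, glia are produced in large numbers, synapses form and are pruned, and myelin appears. Gene annotation of the build of the peak lists (mm9) was not used here, so elements are given by position, with no gene name. The tissue labels could not be checked against marker genes for the same reason.

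Forebrain libraries held 17135627 to 33394166 uniquely mapped reads and their lists 11871 to 36771 peaks. The lists that define absence were not all short, with 15246 peaks at P21, 33178 in P56 replicate 1 and 25709 in P56 replicate 2, against 27288 at E14.5, 20450 at E17.5 and 30308 at P0. The heart P21 pair stood apart from its labels. Its H3K27ac list held 7376 peaks, the fewest of the 24, and its input list 23762, where the next longest input list held 865. The heart P21 input list overlapped 74.0% of kept elements, those with a peak at E14.5, E17.5, P0 and P21 and in both P56 lists of forebrain, and the heart P21 H3K27ac list 11.1%. Results that use heart P21 are therefore given with and without it. P56 replicate 2 carries a library name of another series (LPAN) than the other forebrain libraries (IO), and its header alone names the sex as male.

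Most members still had a peak at P7, and most had none at E11.5 in the lists as deposited. With lists over 11871 peaks cut to their best 11871, 741 elements met the rule, and they overlapped 155 of the members. Of these 741, 63.4% had an E11.5 replicate 1 peak and 51.8% (95% interval 48.2 to 55.5) a P7 peak. These were largely other elements than the members, and the E11.5 replicate 1 and P7 lists were cut too. Most of the 741 thus had an E11.5 peak, and whether most had a P7 peak was not clear. In the lists as deposited, 95.5% (90.9 to 98.2) of the 155 members had a P7 peak and 73.5% (65.9 to 80.3) an E11.5 peak in either replicate. At forebrain P7, 1430 members (77.4%, exact Clopper-Pearson 95% interval 75.4 to 79.3) had a peak. The background was 38.7% of all elements and 96.5% of elements with the 3 early peaks. At E11.5, 598 members (32.4%, 30.2 to 34.5) had a peak in replicate 1, where the background was 17.2% of all elements and 69.6% of elements with the 3 early peaks. In replicate 2 it was 408 members (22.1%, 20.2 to 24.04), with backgrounds of 12.9% and 56.8%. Both replicates marked 371 members, replicate 1 alone 227 and replicate 2 alone 37, so that 635 (34.4%) had a peak in either, where the background was 18% of all elements and 71.5% of elements with the 3 early peaks. The comparison set used throughout is the 10375 kept elements, which had a peak at E14.5, E17.5 and P0 and also at P21 and in both P56 lists. Of these, 82.8% had a peak in E11.5 replicate 1, 69.9% in replicate 2 and 99.8% at P7. Members were thus marked less often than kept elements in each of these 3 lists. With 1 list at P7 and 2 at E11.5, no test over samples was possible, and the intervals cover counting error only.

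**Figure D1:**
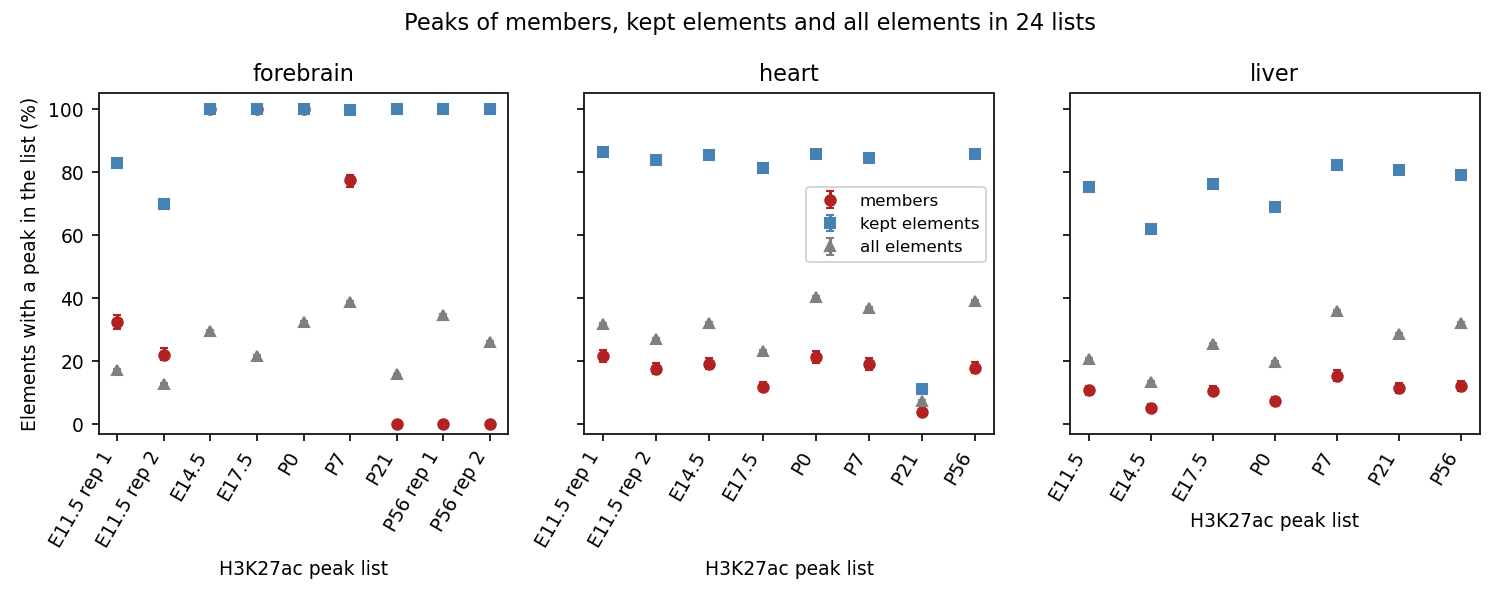
Share of members (red circles), kept elements (blue squares) and all elements (grey triangles) with a peak in each of the 24 H3K27ac lists, in percent, with exact binomial 95% intervals. Members sit at 100% or 0% in the 6 forebrain lists of the rule, at 77.4% in forebrain P7, and between 3.73% and 21.5% in the heart lists.

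The E11.5 and P7 lists split the members into 4 groups. The largest, 921 members (49.8%), had no E11.5 peak in either replicate and a peak at P7. A further 292 (15.8%) had neither, so that E14.5, E17.5 and P0 were their only forebrain lists. Another 509 (27.5%) had a peak at E11.5 and at P7, and 126 (6.82%) had a peak at E11.5 and none at P7. Among kept elements the same 4 groups held 15.7%, 0.0386%, 84.1% and 0.164%. Kept elements were chosen to have every later forebrain peak of the rule, so these shares are not a neutral background. The 4 groups were not counted over wider sets. Of all elements with a peak at E14.5, E17.5 and P0, 96.5% had a P7 peak and 71.5% an E11.5 peak in either replicate. Over all elements these shares were 38.7% and 18%. By presence of peaks, the 292 members seen at E14.5, E17.5 and P0 alone are those that the word transient describes most closely. They were also the lowest ranked of the 4 groups, with median percentiles of 35.4 at E14.5, 17.8 at E17.5 and 25.6 at P0. A peak just under the caller's threshold at E11.5 or P7 cannot be told from none.

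**Figure D2:**
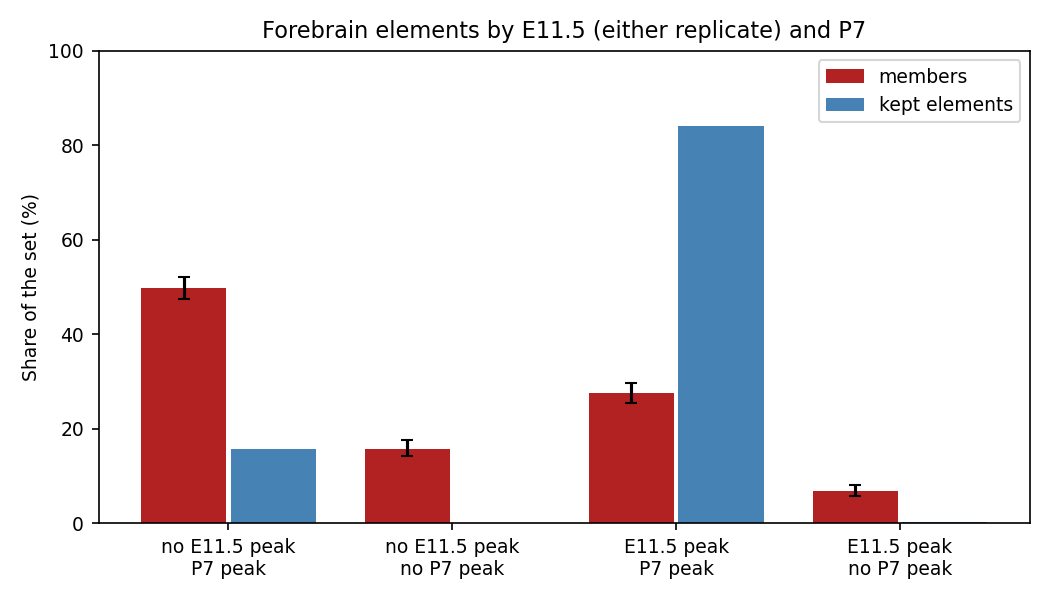
Share of the 1848 members (red) and of the 10375 kept elements (blue), in percent, by presence of a peak at forebrain E11.5 (either replicate) and P7. Error bars on the members are exact binomial 95% intervals. Kept elements were chosen by their later forebrain peaks, so they are not a neutral background. The group without an E11.5 peak and with a P7 peak is the largest among members, at 49.8%, and the group with both is the largest among kept elements, at 84.1%.

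These groups differed in sharing with other tissues. Of members with no E11.5 peak and a P7 peak, 68.7% (65.6 to 71.7) had no peak in any of the 15 heart and liver lists. For members seen at E14.5, E17.5 and P0 alone this was 68.8% (63.2 to 74.1). For members with both an E11.5 and a P7 peak it was 45.2% (40.8 to 49.6), and for those with E11.5 and no P7 peak 52.4% (43.3 to 61.3). The E11.5-marked groups were also the ones found more often in heart E11.5 replicate 1, at 38.3% and 31.7%, against 13.8% and 11.99% for the groups without an E11.5 peak. In heart P56 these shares stood at 26.5% and 15.9% against 15.1% and 12.3%. In liver P56 they stood at 19.8% and 9.52% against 9.12% and 8.56%. The background over all elements was 31.9% in heart E11.5 replicate 1, 39.1% in heart P56 and 32.2% in liver P56. Only the group with both an E11.5 and a P7 peak lay above it, in heart E11.5 replicate 1. Rank was not matched, with median E14.5 percentiles of 62.5 and 56.8 in the E11.5-marked groups against 36.2 and 35.4.

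The authors ranked the peaks of each list without giving a score, and ranks are compared here only inside 1 list. An element takes the percentile of its best peak, where 100 is the best of the list. At E14.5 the median percentile was 44.7 for members and 78.2 for kept elements. At E17.5 it was 28.7 and 71.6, and at P0 43.0 and 81.2. Over all elements with a peak there, the medians were 51.4, 52.3 and 52.0. The members therefore lay below the typical element in each of these lists. The lists differ in length, so the gaps are not compared between them. At or above the percentile of 90 were 14 of 1848 members at E14.5 (0.758%), 7 at E17.5 (0.379%) and 12 at P0 (0.649%). The shares over all elements with a peak there were 10.6%, 10.7% and 10.7%. In lists outside the rule members also lay below kept elements, each over the elements with a peak there. The medians were 36.0 against 66.9 in E11.5 replicate 1, 32.2 against 62.8 in replicate 2 and 40.3 against 85.1 at P7.

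As merged elements, members were narrower than kept elements, with a median width of 3529 bp (quartiles 2683 and 5150) against 6328 bp. Over all elements the median was 2956 bp. Merged width takes in the peaks of every list, and 61.1% of members against 7.64% of kept elements had no heart or liver peak. The part of this in the width was not tested. Within the lists, peak lengths were summed per element. The median inside members was 2764 bp at E14.5, 1780 bp at E17.5, 2288.5 bp at P0 and 2124.5 bp at P7. Inside kept elements it was 2806, 2382, 2895 and 3193 bp. Over all elements with a peak there it was 2526, 2104, 2367 and 2406 bp. The medians over single peaks of these lists were 2482, 2044, 2313 and 2346 bp. Members thus lay above the median over all elements at E14.5, as kept elements did, and below it at E17.5, P0 and P7. In 1823 members (98.6%) the E14.5, E17.5 and P0 peaks shared at least 1 base, with a median of 1635 shared bp. The other 25 owed their place to peaks that lie side by side within 1 merged element.

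**Figure D3:**
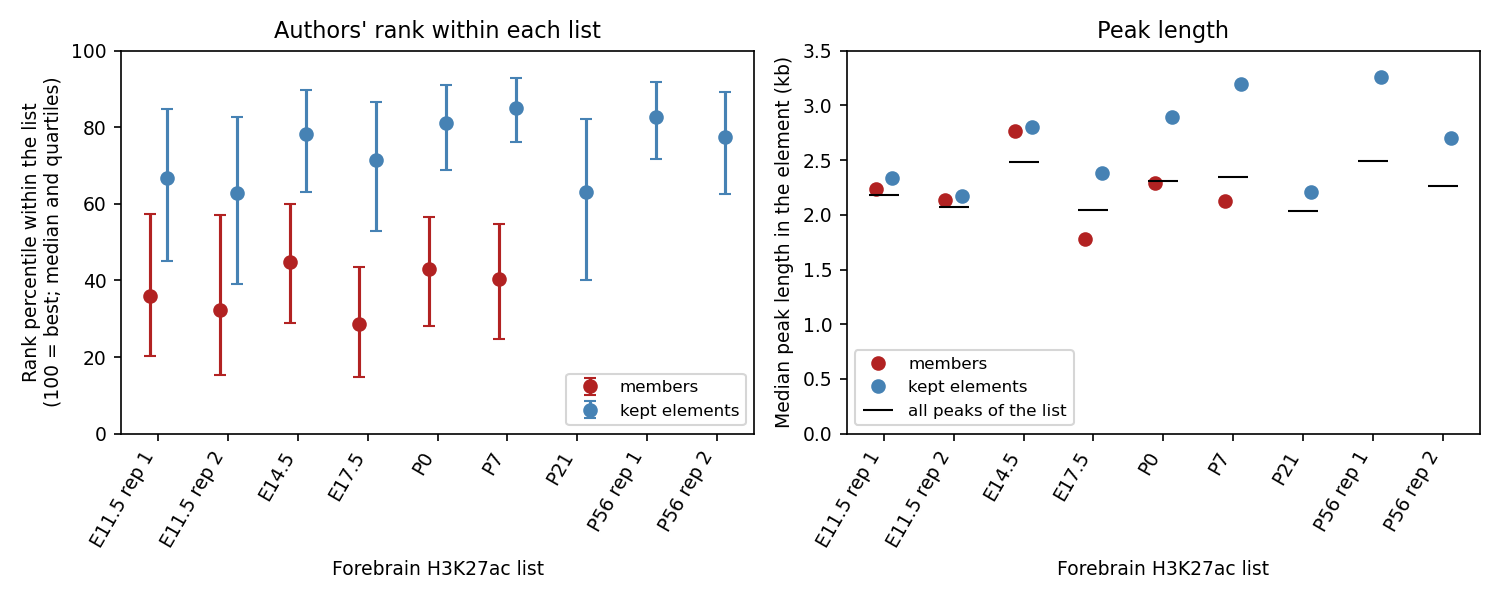
Left, median rank percentile within each forebrain list (100 is the best peak) with quartiles, for members (red) and kept elements (blue) that have a peak there. Right, median of the peak length summed per element, in kb per list, for the same sets, and median length of single peaks of the list (black bars). Members lie below kept elements in every list that marks both, and no member has a peak at P21 or P56.

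Members and kept elements were also compared within 3 equal parts of the 16139 elements, cut at mean percentiles of 52.5 and 76.8 over E14.5, E17.5 and P0. The lowest part held 1501 of the 1848 members, the middle part 309 and the highest part 38. In the lowest part, 26.8% (24.6 to 29.2) of members and 45.4% (42.8 to 47.9) of the 1503 kept elements had an E11.5 peak in either replicate. In the middle part these were 65.0% (59.4 to 70.4) and 82.0% (80.8 to 83.2), and in the highest part 81.6% (65.7 to 92.3) and 97.5% (97.0 to 97.9). A P7 peak was found in 74.0%, 91.6% and 94.7% of members and in 99.7%, 99.7% and 99.9% of kept elements. The shares of members were below those of kept elements in each part, and the E11.5 share was higher in the higher parts for both sets. The parts did not match rank: the median of the mean percentile was 33.9 for members and 41.9 for kept elements in the lowest part, 59.7 and 67.3 in the middle part and 82.1 and 88.1 in the highest. The part of this remaining rank difference in the gap was not tested. Kept elements of the lowest part remained wider, with a median of 7006 bp against 3427 bp, so that width was not matched either.

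**Figure D4:**
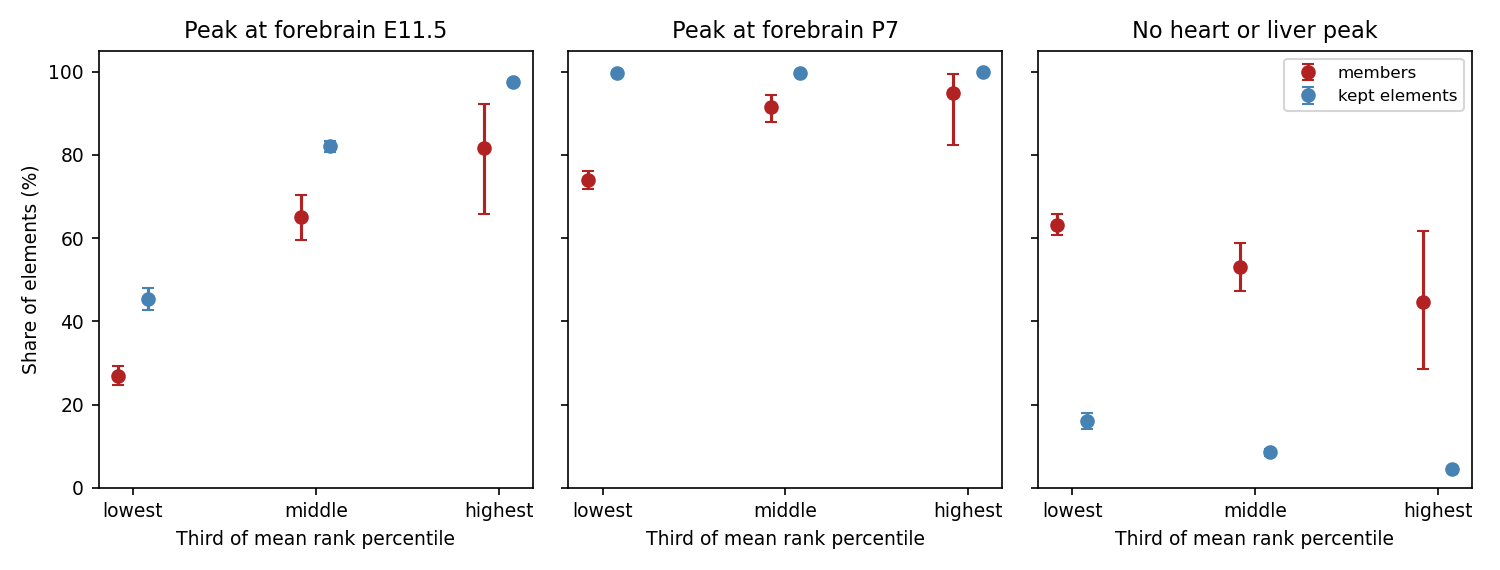
Share of members (red) and kept elements (blue) with a peak at forebrain E11.5 in either replicate, with a peak at forebrain P7, and with no heart or liver peak, in percent with exact binomial 95% intervals, by equal parts of the mean rank percentile. Members lie below kept elements in the first 2 panels and above them in the third panel, where the shares run from 63.2% to 44.7% against 16.03% to 4.51%.

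Of the members, 1130 (61.1%, 58.9 to 63.4) had no peak in any heart or liver list, where the background was 24.4% of all elements and 18.8% of elements with the 3 early peaks. Among kept elements it was 7.64% (7.14 to 8.17). Without the heart P21 list the member count was 1131. In heart but not liver there were 326 members (17.6%), in liver but not heart 103 (5.57%), and in both 289 (15.6%). Among all elements these shares were 27.1%, 17.3% and 31.2%. Within the 3 parts by rank, which leave members at lower rank than kept elements, the order was the same, with 63.2% of members and 16.03% of kept elements free of heart and liver peaks in the lowest part, 53.1% and 8.50% in the middle part and 44.7% and 4.51% in the highest. Liver cannot be told apart from library series, since its lists are all LPAN and the early forebrain lists all IO.

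The share of members marked in single heart lists was 21.5% and 17.53% in the E11.5 replicates, 19.2% at E14.5, 11.9% at E17.5, 21.3% at P0, 19.1% at P7, 3.73% at P21 and 17.9% at P56. In liver it was 10.7% at E11.5, 5.25% at E14.5, 10.6% at E17.5, 7.36% at P0, 15.3% at P7, 11.4% at P21 and 12.01% at P56. Over all elements the heart shares were 31.9% and 27.1% in the E11.5 replicates, 32.2% at E14.5, 23.2% at E17.5 and 40.3% at P0. They were 36.8% at P7, 7.38% at P21 and 39.1% at P56. In liver they were 20.6%, 13.3%, 25.4%, 19.7%, 35.9%, 28.6% and 32.2% from E11.5 to P56. Members were thus marked less often than all elements in each heart and liver list. Heart held more members than liver at every stage but P21. The same order held for kept elements, with 86.3% in heart E11.5 replicate 1 and 75.3% in liver E11.5. In each tissue the 2 shortest lists had the 2 lowest shares of members, heart P21 and E17.5 and liver E14.5 and P0.

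Whether the members were also left by the mark in heart and liver after birth was tested over stages. For each list, the percent of kept elements with a peak was subtracted from the percent of members, and the 4 stages up to P0 were compared with P7, P21 and P56. In liver the mean difference was -62.1 ± 4.06 points (SD, n = 4) up to P0 and -67.8 ± 1.25 points (SD, n = 3) after P0. This contrast of 5.68 points did not pass the threshold of 0.05 (two-sided exact permutation p = 0.0857 over 35 splits, adjusted p = 0.171 over both tissues). Its direction depended on the scale, since as a log2 ratio of the percents it was -0.457 (exact permutation p = 0.143, adjusted p = 0.286). The mean share of members with a liver peak was 8.47% ± 2.64 (SD, n = 4) up to P0 and 12.9% ± 2.10 (SD, n = 3) after P0. For kept elements it was 70.5% ± 6.66 and 80.7% ± 1.57. In heart the means were -66.3 ± 2.20 points (SD, n = 4) and -46.9 ± 34.2 points (SD, n = 3), a contrast of -19.4 points (two-sided exact permutation p = 0.257, adjusted p = 0.257). That value rested on heart P21, without which the contrast was 0.367 points (exact permutation p = 0.867 over 15 splits). The smallest p that 35 splits can give is 0.0286, so that 1 tissue alone could not pass after adjustment over both. A loss of members after birth in heart or liver was therefore not detectable with these lists.

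Single members could still be followed in the other tissues. Among the 615 members with any heart peak, 189 (30.7%, 27.1 to 34.5) had heart peaks only up to P0, 59 (9.59%) only after P0 and 367 (59.7%) in both periods. The first of these shares was 3.90% among kept elements and 21.7% among all elements with a heart peak, and 30.8% of members without heart P21. In liver, 392 members had a peak, of which 58 (14.8%, 11.4 to 18.7) were marked only up to P0, 133 (33.9%, 29.3 to 38.9) only after P0 and 201 (51.3%) in both. Among all elements with a liver peak these shares were 10.7%, 36.3% and 53.1%. The share of members was above the background for marking only up to P0 and below it for marking only after P0 and in both periods. The intervals cover counting error only, elements are not replicates, and no test over samples was run on these shares. Without liver P21 the share only up to P0 was 16.01% (12.5 to 20.1) for members and 11.2% for all elements. Of all 1848 members, 438 (23.7%) had a peak in heart P56, liver P21 or liver P56, against 51.6% of all elements and 88.1% of kept elements. These 438 had no peak in forebrain at P21 or P56 and had one in another tissue at those stages.

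Members that were acetylated in another tissue over the same 3 stages gave a closer comparison. In heart, 201 members (10.9%) had a peak at E14.5, E17.5 and P0. This share was near the 12.2% of elements lacking 1 or more of the 3 forebrain peaks and below the 80.4% of kept elements. Of these 201 members, 189 (94.0%, 89.8 to 96.9) still had a peak at heart P7 and 158 (78.6%, 72.3 to 84.1) at heart P56. Kept elements with the same 3 heart peaks numbered 8337, and 98.9% and 98.0% of them were marked at heart P7 and P56. Elements lacking 1 or more of the 3 forebrain peaks numbered 8578 and had 93.7% and 83.6%. In liver, 73 members (3.95%) had the 3 early peaks, against 3.64% of elements lacking 1 or more forebrain peaks and 59.0% of kept elements. Of these 73, 71 were marked at P7, 51 (69.9%, 58.0 to 80.1) at P21 and 49 (67.1%, 55.1 to 77.7) at P56. The values for 6124 kept elements were 98.5% at P21 and 97.7% at P56, and for the 2548 elements lacking a forebrain peak 55.1% and 57.1%. In both tissues members lay below kept elements at P56. In the doubted heart P21 list the order was the other way, with 21.9% (16.4 to 28.3) of these members, 12.6% of kept elements and 30.1% of elements lacking a forebrain peak. Against elements lacking a forebrain peak, the share of members was lower at heart P56 and higher at liver P21 and P56. The intervals cover counting error only, with 1 list per stage, so no difference is read from them.

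The members were spread over all chromosomes. Chromosome 1 held 171, chromosome 2 158 and chromosome 5 148. As a share of elements with the 3 early peaks, they ran from 7.24% (5.80 to 8.89) on chromosome 11 to 16.5% (14.3 to 18.9) on chromosome 1, leaving out chromosome Y with 1 element. Within 100 kb of a member, another member was found for 711 (38.5%, 36.2 to 40.7), against 77.6% of kept elements near another kept element. Of the 3916 elements with the 3 early peaks and a peak in 1 or 2 of the later lists, 50.6% (49.0 to 52.2) lay near another of that set. The sets differ in size, and the part of size in these shares was not tested. The median distance to the nearest kept element was 99701.5 bp for members. For the 3916 elements with the 3 early peaks and a peak in 1 or 2 of the later lists it was 49498 bp.

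Of the windows of 100 kb with a member, 1398 held 1, 170 held 2, 27 held 3, 6 held 4 and 1 held 5. The window with 5 began at 111400001 on chromosome 5. Its members lay between 111424944 and 111480323 and had mean percentiles of 21.7 to 66.9. Of these, 1 had a peak at E11.5 and 4 had one at P7, and each was also marked in 1 to 8 heart or liver lists. The 2 windows that come next by position among the 6 with 4 members differed in tissue sharing. On chromosome 13, in the window from 21300001, all 4 members had a P7 peak and each was marked in 1 to 4 heart or liver lists, and 3 had an E11.5 peak. On chromosome 15, in the window from 83800001, all 4 had a P7 peak, none had an E11.5 peak, and none was marked in heart or liver. The strongest of these lay from 83824930 to 83832555 with a mean percentile of 83.4. The 2 windows held no kept element, and the window on chromosome 5 held 1.

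The highest ranked members are given by position in mm9, counted from 1, with the rank of the best peak in each list. The first lay on chromosome 10 from 43293913 to 43372921. Its best forebrain peak, from 43296877 to 43301871 at E14.5, ranked 111 of 27288 peaks at E14.5, 151 of 20450 at E17.5 and 345 of 30308 at P0. It ranked 616 and 605 in the E11.5 replicates and 4948 of 36771 at P7. The 79.0 kb width comes from a single liver E17.5 peak from 43293920 to 43372921, which ranked 331 of 24270. The element was marked in 6 heart lists and 6 liver lists, with heart percentiles of 90.4 in E11.5 replicate 1, 67.3 at E14.5, 56.7 at E17.5, 45.9 at P0 and 1.26 at P7 and no heart peak at P21 or P56. In liver the percentiles were 89.6 at E11.5, 94.3 at E14.5, 98.6 at E17.5, 92.9 at P0, 87.6 at P7 and 1.25 at P21, with no peak at P56. The best liver P0 peak, from 43337976, lay apart from the forebrain peak. The element ranked high in the forebrain, liver and heart E11.5 lists and had no peak at P56 in any of the 3 tissues.

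The second member, on chromosome 4 from 130178084 to 130180816, was compact at 2.73 kb. It ranked 527 at E14.5, 212 at E17.5, 213 at P0 and 3217 at P7 in forebrain, and 978 and 509 in the E11.5 replicates. In contrast to the first it was marked in adult heart and liver, at percentiles of 38.3 in heart P56, 47.8 in liver P21 and 56.5 in liver P56. The third, on chromosome 8 from 127314863 to 127319556, had percentiles of 95.3 at E14.5, 96.1 at E17.5, 99.0 at P0 and 95.7 at P7. Its E11.5 peak was in replicate 1 alone, at 50.03, and its only peak in another tissue was in heart E11.5 replicate 1, at 37.9. It went from a high rank in the P7 list to no peak at P21 or in either P56 list.

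The fourth, on chromosome 4 from 147501764 to 147507200, had percentiles of 98.2 at E14.5, 96.3 at E17.5, 95.8 at P0 and 78.3 at P7, with 94.1 and 93.3 in the E11.5 replicates. Its only peak outside forebrain was in heart E11.5 replicate 1, at 12.9. Member 5, on chromosome 14 from 104046179 to 104051578, had peaks in no heart or liver list. Its percentiles were 90.3 and 91.9 in the E11.5 replicates, 96.3 at E14.5, 89.8 at E17.5, 93.3 at P0 and 97.5 at P7, where it ranked 908 of 36771. The sixth, on chromosome 13 from 21987946 to 21990613, had 87.4 at E14.5, 90.9 at E17.5, 95.6 at P0 and 90.7 at P7. Its only heart or liver peak was in heart E11.5 replicate 1, at 23.96. These 3 members had no liver peak and at most 1 heart peak, low in its list.

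Places 7 to 10 were more varied. The seventh, on chromosome 7 from 78847348 to 78854835, was marked in 7 heart and 5 liver lists, and its percentile at E14.5 was 98.3, against 78.7 at E17.5, 86.2 at P0 and 78.9 at P7. The eighth, on chromosome 7 from 134590597 to 134594518, had a peak in 14 of the 15 heart and liver lists, all but heart P21. Its percentiles there ran up to 99.0 at liver E11.5, with 93.2 at heart P56 and 88.6 at liver P56, and in forebrain they were 91.2 at E14.5, 92.5 at E17.5, 78.6 at P0 and 93.5 at P7. No forebrain list at P21 or P56 held it. The ninth, on chromosome 9 from 39363643 to 39367214, had no heart or liver peak and percentiles of 87.6, 79.8, 93.1 and 72.2 at E14.5, E17.5, P0 and P7. The tenth, on chromosome 12 from 29115539 to 29118610, had 89.2, 88.5, 76.9 and 68.5 at these stages and 2 heart peaks, at 24.3 and 8.21.

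**Figure D5:**
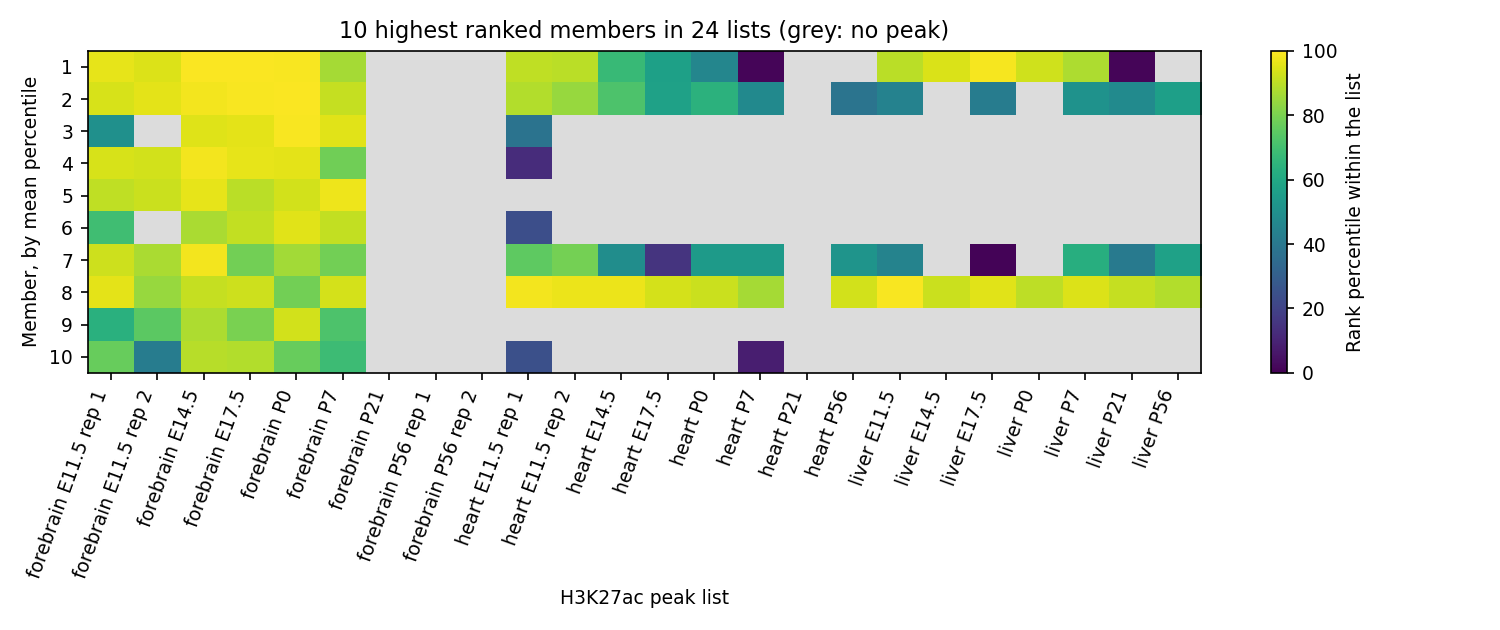
Rank percentile within each of the 24 H3K27ac lists (colour scale, 100 is the best peak) for the 10 members with the highest mean percentile over forebrain E14.5, E17.5 and P0, numbered as in the text. Grey cells have no peak. Member 8 is marked in 14 of 15 heart and liver lists, and members 5 and 9 in none.

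All 10 had a peak at E11.5 and at P7. The highest ranked members without an E11.5 peak came next in the order. One lay on chromosome 7 from 126327024 to 126330174, with percentiles of 77.3 at E14.5, 88.2 at E17.5, 89.0 at P0 and 74.1 at P7 and no heart or liver peak. Another, on chromosome 5 from 143082577 to 143085950, had 87.9, 79.0 and 85.3 at E14.5, E17.5 and P0 and no P7 peak. This element had liver peaks at P7, P21 and P56, at percentiles of 44.5, 56.7 and 3.43, and none in earlier liver lists. The third, on chromosome 6 from 11874873 to 11877893, had a peak in forebrain E14.5, E17.5 and P0 and in no other of the 24 lists, at percentiles of 80.2, 90.5 and 81.4. Among members without a P7 peak these last 2 ranked highest, followed by one on chromosome 6 from 113572980 to 113575560 with 80.1, 69.6 and 75.4. That one had peaks in both E11.5 replicates and in heart P7.

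The presence of a P7 peak varied with the rank at P0. With members split into 5 groups of 369 or 370 by P0 percentile, a P7 peak was found in 52.4% (47.2 to 57.6) of the lowest group, in 69.1%, 80.5% and 88.3% of the next, and in 96.5% (94.1 to 98.1) of the highest. The 418 members without a P7 peak had a median P0 percentile of 27.2, against 47.5 for the 1430 with one. Their E14.5 percentiles were closer, at 42.4 and 45.9. The P7 list was the longest of the forebrain lists, with 36771 peaks.

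The edge of the rule was crowded. The 3 members with the lowest mean percentile were on chromosome 4 from 13641797, chromosome 5 from 67196705 and chromosome 17 from 3360517, at 4.69, 3.76 and 3.28. The 3 highest elements that had 1 later peak were on chromosome 2 from 77724992, chromosome 7 from 81156296 and chromosome 5 from 152168944, with means of 100, 97.7 and 97.5, and their later peak was in P56 replicate 1. The one on chromosome 2 ranked 1 in each forebrain and heart list that marked it. Elements with the 3 early peaks and a later peak in P56 replicate 1 alone numbered 1264, in P56 replicate 2 alone 110 and at P21 alone 28. The median percentile of the 1264 in P56 replicate 1 was 30.9. On the other side, 1565 elements had peaks at E14.5 and P0 and none later but missed E17.5, 520 missed only E14.5 and 482 only P0.

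Membership depended on the length of the lists. With each longer list cut to 11871 peaks, the length of the shortest forebrain list, and the heart P21 list of 7376 peaks kept whole, 741 elements met the rule and they overlapped 155 (8.39%) of the members. Those 155 ranked within the best 11871 peaks at each of E14.5, E17.5 and P0. Among them 95.5% (90.9 to 98.2) had a P7 peak and 73.5% (65.9 to 80.3) an E11.5 peak, against 75.7% and 30.8% of the other 1693 members. No heart or liver peak was found for 52.3% (44.1 to 60.3) of the 155 and for 62.0% (59.6 to 64.3) of the others. Without P56 replicate 1 in the rule the members numbered 3112.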

How the data were processed

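H3K27ac peak lists of 24 libraries, and of their 24 inputs, were used as deposited. Per the submitters' processing notes BWA, MACS 1.4 and the build mm9 were named, with no role stated. Per the file headers, each list gives a peak's position and the authors' rank, with no score or signal. Read and peak counts come from the authors' deposited summary table, and 0 of its columns were unmapped. Peaks were called per library. Peaks overlapping by 1 bp were merged, shares carry exact Clopper-Pearson 95% intervals that cover counting error only, and rank percentiles (100 is best) were used within 1 list. Heart and liver contrasts used a two-sided exact permutation test over stages, with Benjamini-Hochberg adjustment over both, and the code was tested on simulated lists. Python 3.11.15, numpy 2.4.6, pandas 2.3.3 and scipy 1.17.1 were used.

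The members, lists and tests were chosen with earlier results of these data known. Named elements were the 10 members with the highest mean percentile over forebrain E14.5, E17.5 and P0, the top 3 among members without heart or liver peaks, without E11.5 peaks, and with or without a P7 peak, the 3 lowest, the 3 highest elements failing by 1 later list, and the 3 windows of 100 kb with most members. Alternatives covered overlap, trimming, list length, input peaks, left-out libraries, stage P21 left out, the comparison set, rank weighting and scale. Those chosen after seeing the data were every stage left out in turn, the heart P21 list dropped or replaced by its input list, an input filter without heart P21, and the 3 parts by rank. Gene, motif and sequence steps needed an mm9 reference and were not run. Replicates are not stated to come from separate animals, so spread between them may be technical.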

Additional observations from a re-analysis of the deposited data

Results flagged for a closer look

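An input list, which no comparison uses, held peaks over members. Peaks of the heart P21 input list overlapped 128 members (6.93%) and 7674 kept elements (74.0%), where the heart P21 H3K27ac list marked 69 members (3.73%) and 1155 kept elements (11.1%). The input list held 23762 peaks and the H3K27ac list 7376. The other input lists overlapped 9 members in all, of which 8 were in liver P0. Whether the heart P21 labels are exchanged was not tested.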

How the results depend on the processing

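The number of members was 741 at equal list lengths, 1200 with the best ranked 75% of each list, and 1958 to 3112 with 1 P56 replicate left out. With P56 replicate 2 left out, the values were 78.1% at P7, 59.5% without heart or liver peaks, 39.2% within 100 kb of another member and a median P0 percentile of 43.3. With P56 replicate 1 left out, the shares were 37.2% at E11.5, 84.6% at P7, 52.5% without heart or liver peaks and 48.0% within 100 kb of another member, and the median P0 percentile was 47.0. At equal list lengths (heart P21, which is shorter, kept whole) these values were 63.4%, 51.8%, 57.8%, 22.8% and 72.3. Counting a peak only if it covers 50% of its element gave 27.8% at E11.5, 74.3% without heart or liver peaks, 32.6% within 100 kb and a P0 percentile of 52.6. Trimming peaks to 1 kb gave 74.5% at P7 and a P0 percentile of 45.2, and the best 75% gave 31.0% within 100 kb and 55.5. Leaving out peaks that overlap any input peak gave 64.7% without heart or liver peaks. E11.5 replicate 2 in place of replicate 1, or with replicate 1 left out, gave 22.1%.

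The heart contrast turned to 0.367 points with stage P21 left out, and to 0.504 points with the heart P21 input list in its place. Leaving out 1 list at a time gave -29.9 to 0.367 points. The liver contrast turned to -0.457 as a log2 ratio of the percents, and ran from 3.86 to 6.89 points with 1 liver list left out and was 3.16 points without forebrain P56 replicate 1 in the rule. It was 2.12 points with peaks trimmed to 1 kb, 10.8 without peaks overlapping any input peak and 12.9 with kept elements weighted to the rank parts of the members. The heart contrast under the last 2 was -6.33 and -10.2 points, and it was -30.4 points with LPAN lists alone. No contrast passed the adjusted threshold under any alternative run, but many of these runs could not have passed. With a stage left out, or with LPAN heart lists alone, too few splits remained for any p under 0.05. With P21 left out, the smallest exact permutation p over 15 splits was 0.0667. The lowest adjusted exact permutation p was 0.0571, in liver at equal list lengths (unadjusted p = 0.0286). With 35 splits, 1 tissue alone can give no lower adjusted p, so no conclusion is drawn from these runs. The cause of these changes was not tested, beyond fewer peaks entering when lists are shortened. No paired analysis was possible because the tests use 1 list per stage, and the forebrain groups with 2 replicates enter no test. Lists give no score, so a peak just under the caller's threshold cannot be told from none.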
